A study of Mus musculus with 26 samples.

Results

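The cell cycle and proliferation genes described here are 41 genes chosen by name from the 54532 genes counted in the livers of 26 C57BL/6 mice. Benoxacor is a safener: it is mixed into herbicides so that the crop tolerates them. Mice were gavaged with it on each of 3 days in a row, and liver RNA was collected 24 hours after the final dose. The dose was 0 mg/kg in 5 mice, 0.5 mg/kg in 5 mice, 5 mg/kg in 8 mice and 50 mg/kg in 8 mice. All were of 1 strain with no transgene or other agent named in the labels, and each library is 1 mouse. For the age of the mice the labels give only acclimatisation from 4 to 8 weeks. The 0 mg/kg mice are the controls of every dose, so the 3 comparisons with 0 mg/kg share them. By their numbers the mice fall into 2 runs. The 11 mice from 619 to 632 and the 15 mice from 601 to 616 are separated by a gap that the labels do not explain. Only 1 of the 5 control mice belongs to the run from 619. Higher doses had higher mouse numbers inside both runs, so dose and the order of numbering cannot be told apart.

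Most hepatocytes of an adult liver rest outside the cell cycle but keep the ability to divide, as after partial removal of the liver or under some foreign chemicals that activate nuclear receptors. Entry into the cycle begins with G1 cyclins, which free E2F transcription factors to switch on the genes of DNA replication. Later, in G2 and mitosis, the factors B-Myb (Mybl2) and Foxm1 act with the MuvB complex, which binds a promoter element named CHR, to switch on the kinases, cyclins and spindle proteins of cell division. The promoters of such genes often hold CCAAT boxes as well, which are bound by the factor NF-Y. The 41 genes comprise 3 G1 cyclins, 11 genes of DNA replication and nucleotide supply, 10 G2 and mitotic cyclins and kinases, 3 genes of mitotic protein degradation, 12 genes of chromosomes, spindle and cytokinesis, and the 2 transcription factors Foxm1 and Mybl2.

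Total counts per library ranged from 5433074 to 9088626, with a median of 7105531, and the 41 genes together took 0.0116% to 0.0216% of the reads. Of them, 29 had enough reads to be tested and 12 did not: Ccnb1, Ccnb2, Plk1, Aurkb, Bub1, Bub1b, Melk, Cdc20, Ube2c, Cenpe, Tpx2 and Foxm1, with 18 to 200 reads each over all 26 mice. The libraries were liver by their hepatocyte markers, which summed to between 49622 and 137551 CPM (reads of a gene scaled to library size by TMM) for 8 genes such as Alb and Apoa1. One library stood apart. In 5 mg/kg replicate 8 the 8 markers of steroid-producing cells summed to 3872 CPM, while no other library exceeded 18.9 CPM. Its B cell markers summed to 125 CPM (at most 15.4 elsewhere), its T and NK cell markers to 22.4 CPM (at most 8.26) and its stellate cell and fibroblast markers to 452 CPM (at most 300.5). All 8 markers of the steroid-producing cell and all 8 of the B cell were at their highest there. In the T and NK cell list Cd4, Gzma, Gzmb, Klrb1c and Ncr1 were higher in another library (Ncr1 0.311 CPM there and up to 0.579 elsewhere). The stellate cell and fibroblast markers Lrat (11.7 CPM there, up to 31.0 elsewhere) and Dcn (182 and up to 193.5) were too. Values without it stand beside many of the results that it moved. In a whole liver, fewer cells of a type and less RNA per cell cannot be told apart.

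The promoters of 7 genes that the results turn on are shown, since promoter elements are how the cell cycle program is known to be read. Of these genes 3, Mcm5, Mcm6 and Top2a, formed the pairs of highest correlation between mice, those with Top2a passing the test only narrowly. Cdca8, Rrm2 and Nusap1 had the smallest p-values against 0 mg/kg. Each stretch is the 160 bases before the RefSeq start of the gene (GRCm38.p6), 5′ to 3′ on the gene's strand. Capitals mark matches, on either strand, to an E2F element (TTTCCCGC, TTTGGCGC or TTTCGCGC), to a CHR (TTTGAA, or its variant TTCGAA) or to a CCAAT box (CCAAT, read ATTGG on the other strand), and overlapping matches merge into 1 run of capitals.
Mcm5 (chr8:75109349-75109508, plus strand): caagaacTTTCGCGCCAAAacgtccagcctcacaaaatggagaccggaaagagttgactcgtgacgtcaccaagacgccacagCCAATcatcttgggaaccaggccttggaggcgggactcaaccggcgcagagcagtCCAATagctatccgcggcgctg
Mcm6 (chr1:128359706-128359865, minus strand): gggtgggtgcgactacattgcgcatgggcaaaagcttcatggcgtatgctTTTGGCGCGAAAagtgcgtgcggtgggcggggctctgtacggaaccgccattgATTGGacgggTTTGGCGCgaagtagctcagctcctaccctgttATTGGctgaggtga
Top2a (chr11:99024190-99024349, minus strand): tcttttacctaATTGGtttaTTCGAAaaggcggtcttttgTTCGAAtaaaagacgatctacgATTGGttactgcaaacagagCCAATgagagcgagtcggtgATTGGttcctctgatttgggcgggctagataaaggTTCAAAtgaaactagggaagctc
Mki67 (chr7:135716380-135716539, minus strand): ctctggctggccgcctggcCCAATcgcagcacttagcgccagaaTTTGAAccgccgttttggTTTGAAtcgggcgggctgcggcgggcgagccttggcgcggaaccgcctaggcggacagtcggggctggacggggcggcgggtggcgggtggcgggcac
Cdca8 (chr4:124936918-124937077, minus strand): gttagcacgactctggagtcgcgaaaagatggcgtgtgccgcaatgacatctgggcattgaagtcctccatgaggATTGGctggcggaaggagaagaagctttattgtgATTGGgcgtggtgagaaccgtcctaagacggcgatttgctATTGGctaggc
Rrm2 (chr12:24708094-24708253, plus strand): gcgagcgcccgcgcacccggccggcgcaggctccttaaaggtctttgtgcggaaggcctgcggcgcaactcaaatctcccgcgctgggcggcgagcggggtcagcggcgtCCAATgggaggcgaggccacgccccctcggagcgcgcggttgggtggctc
Nusap1 (chr2:119618138-119618297, plus strand): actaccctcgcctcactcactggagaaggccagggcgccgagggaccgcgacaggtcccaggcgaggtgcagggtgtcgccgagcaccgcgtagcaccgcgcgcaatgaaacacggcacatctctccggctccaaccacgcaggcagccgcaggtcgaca

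Mcm5 and Mcm6, subunits of the replicative helicase, held E2F elements starting at -153 and -149 in Mcm5 and at -110, -106 and -47 in Mcm6, the close pairs being overlapping matches. Top2a (topoisomerase II alpha, which untangles DNA for division) held 3 CHR or CHR variant matches in the stretch shown, at -140, -120 and -23, beside 4 CCAAT boxes. Mki67, which encodes the proliferation antigen Ki-67, held CHR matches at -116 and -98. The stretch of Cdca8 held 3 CCAAT boxes, and a CHR match began 14 bases into the transcript. Rrm2 held 1 CCAAT box and Nusap1 had none of these letters in its stretch. RefSeq promoters of 300 bases, 250 before the start and 50 after it, were matched for 32 of the 41 genes. A CHR (TTTGAA) was present in 15 of the 21 mitotic genes matched (71.4%), in 1 of 9 replication genes (11.1%) and in 20.2% of 27025 genes with a promoter in the table. A CCAAT box was present in 85.7% of the mitotic genes and 88.9% of the replication genes, against 41.1% of all genes. An E2F element of the 3 spellings was present in 4 of 9 replication genes (44.4%), Mcm3, Mcm5, Mcm6 and Mcm7, in 1 mitotic gene, Cdk1 (4.76% of 21), and in 2.12% of all genes. The matches describe letters only, and binding was not measured.

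Most of the cell cycle genes had low levels in these livers, and the 6 highest of the 41 per exon length were G1 cyclins or replication genes. Levels between genes are compared as CPM per kilobase of exon. Pcna, the sliding clamp of the replication fork, was highest with a mean of 8.35 ± 1.27 CPM per kilobase (SD, n = 26), at the 70.2th percentile of all tested genes. Gmnn, which encodes geminin, an inhibitor of replication licensing, averaged 6.21 ± 2.19 (62.6th percentile). Ccnd1 (cyclin D1, the growth-factor-responsive G1 cyclin) averaged 4.18 ± 1.86 (51.5th percentile), and Mcm7, another helicase subunit, 3.16 ± 0.525 CPM per kilobase (43.9th percentile). At the other end of the tested genes, Prc1, a spindle midzone protein, averaged 0.192 ± 0.0685 CPM per kilobase, Mki67 0.158 ± 0.0892 and Top2a 0.118 ± 0.0796, the last at the 0.34th percentile of tested genes. Ranges over the 26 mice overlapped between each pair of neighbours named here, Pcna with Gmnn, Gmnn with Ccnd1, Ccnd1 with Mcm7, Prc1 with Mki67 and Mki67 with Top2a, and the 4 highest lay wholly above the 3 lowest.

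**Figure D1:**
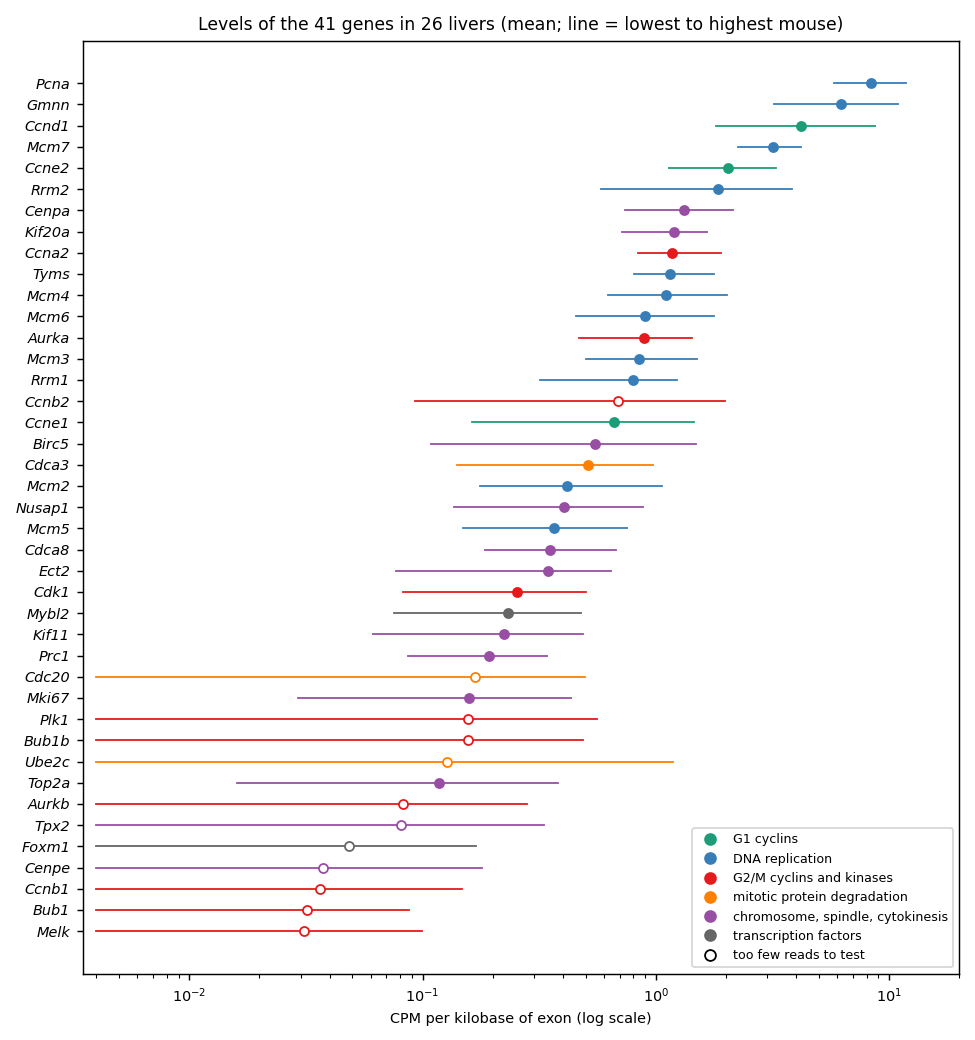
Level of each of the 41 genes per exon length (CPM per kilobase, log axis). Circles are means over 26 mice and lines run from the lowest to the highest mouse, with lines that reach the left end going to 0; open circles mark the 12 genes with too few reads to test. Pcna stands highest at 8.35 CPM per kilobase, and the open circles gather toward the lower end.

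The 12 untested genes were mostly G2 and mitotic genes. Ccnb1 (cyclin B1, the mitotic partner of Cdk1) had 31 reads in all, in 18 of 26 mice. Foxm1 had 52 reads in 19 mice. Melk, a mitotic kinase, had 18 reads in 11 mice, the fewest of the 41. Ccnb2 (cyclin B2) had 200 reads and was present in all 26 mice. When no filter on low counts was applied, 0 of the 12 passed an adjusted p of 0.05 in any comparison. Of the 31932 genes in that fit 0.00313% passed at 50 against 0 mg/kg, 0.00939% in the trend with dose rank, 0.0595% between runs and 0% elsewhere. At an unadjusted p under 0.05 there was 1 of 12 at 50 against 5 mg/kg (5.95% of all genes) and 1 of 12 in the trend (6.24%). There were 0 of 12 at 50 against 0 mg/kg (4.38%), at 5 against 0 mg/kg (5.57%), at 0.5 against 0 mg/kg (5.02%) and between runs (7.43%). The smallest p among them was for Ube2c (the ubiquitin-conjugating enzyme of the anaphase-promoting complex) at 50 against 5 mg/kg. Its log2 fold change was -2.27 (unadjusted p = 0.00867, adjusted p = 0.721 in edgeR's quasi-likelihood test).

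Most of the Ube2c signal at 5 mg/kg came from 1 library. Of its 67 reads over all 26 mice, 25 were in 5 mg/kg replicate 6, where Ube2c reached 3.09 CPM. Ube2c exons share 592 bases (22.8% of their length) with Tnnc2, a troponin of fast skeletal muscle that lies on the opposite strand. Tnnc2 had 1.86 CPM in 5 mg/kg replicate 6 and 0 in the other 25 libraries. Whether the counting used strand is not given in the sources used here, so reads on the shared bases cannot be assigned to 1 of the 2 genes.

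At 50 against 0 mg/kg no cell cycle gene passed the test. Of the 29 tested genes 0 passed an adjusted p of 0.05, beside 0.00694% of the 14415 genes tested (1 gene, lower at 50 mg/kg, not of this list), and 0 of 29 passed in DESeq2 or limma-voom. At an unadjusted p under 0.05 there were 2 of 29, beside 5.11% of all genes. Fold changes were positive for 15 genes and negative for 14, with a median log2 fold change of 0.012 beside 0.005 for all genes. The 95% interval lay within a 2-fold change in either direction for 18 of the 29 (83.5% of all tested genes), and for the other 11 it reached past 2-fold.

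Cdca8 (ENSMUSG00000028873, chromosome 4 from 124918465 to 124939311 in mm10), which encodes borealin of the chromosomal passenger complex that steers chromosome attachment, had the smallest p. It had 1.59 to 3.50 CPM at 50 mg/kg (median 2.03, 8 mice), against 1.40, 1.74, 0.961, 1.61 and 1.33 CPM in the 5 control mice. At 50 mg/kg 7 of 8 mice lay above the highest control, and the groups overlapped by 1 mouse. The log2 fold change was 0.68 (SE 0.25, 95% interval 0.15 to 1.20, unadjusted p = 0.0131, adjusted p = 0.877 in edgeR's quasi-likelihood test). Each control value rests on 7 to 12 reads. Within the run from 619 the log2 fold change was 0.56, with 1 control, and within the run from 601 it was 0.72.

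Rrm2 (ENSMUSG00000020649, chromosome 12 from 24708241 to 24714146), the small subunit of ribonucleotide reductase, which makes the deoxynucleotides for DNA synthesis, followed. It had 4.14 to 7.81 CPM at 50 mg/kg (median 5.73), against 5.18, 4.20, 2.88, 5.90 and 2.51 CPM in controls. Only 3 of 8 mice at 50 mg/kg lay above the highest control. The log2 fold change was 0.70 (SE 0.33, unadjusted p = 0.0457, adjusted p = 0.965), which was 1.14 within the run from 619 and 0.55 within the run from 601. Rrm1, its large partner subunit, had 0.04 (SE 0.20). Mcm5 had the third smallest p, with a log2 fold change of -0.52 (SE 0.34, adjusted p = 0.987), which was 0.64 within the run from 619 and -0.67 within the run from 601. It was -0.32 when control replicate 2 was left out and -0.83 when control replicate 5 was.

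**Figure D2:**
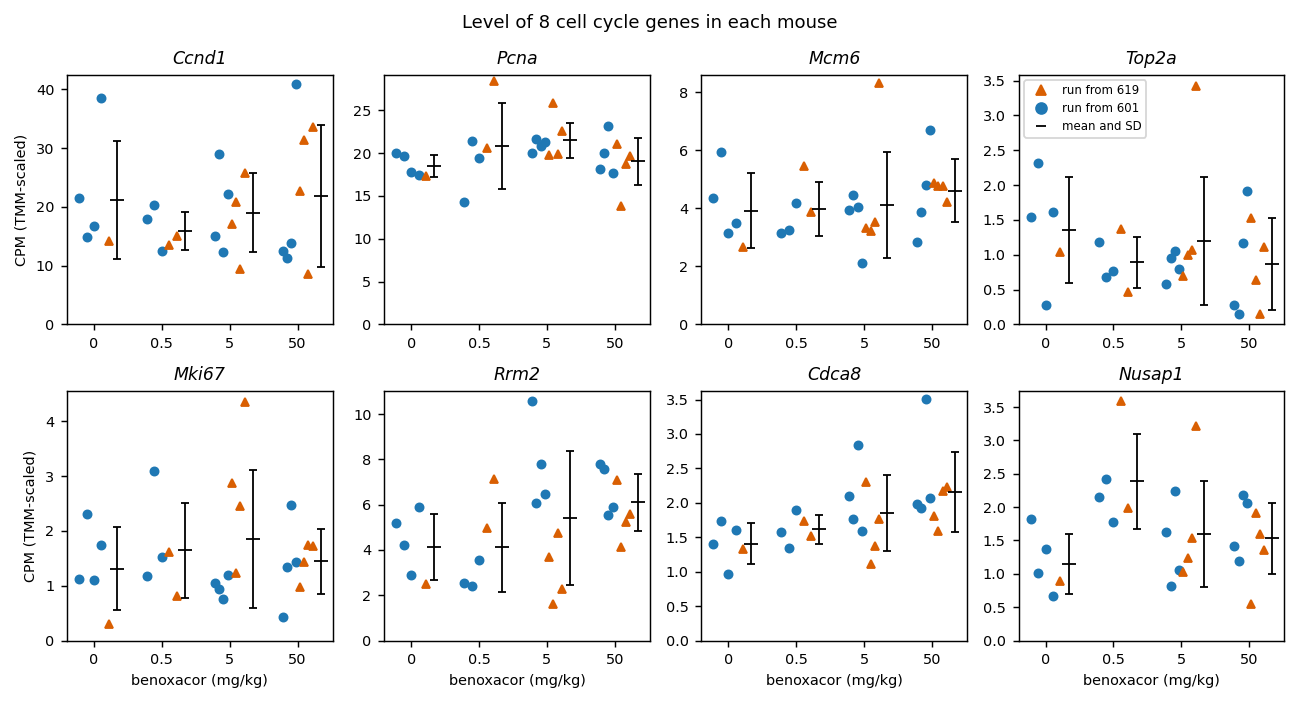
CPM of 8 cell cycle genes in each mouse (points, circles for the run from 601 and triangles for the run from 619) by benoxacor dose, with the mean and SD of each dose to the right of its points. Dose groups overlap in every panel; for Nusap1 the lowest mouse at 0.5 mg/kg (1.78 CPM) lies just under the highest control (1.82 CPM), and 1 triangle at 5 mg/kg stands above the rest in Mcm6, Top2a and Mki67.

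The usual markers of proliferation were spread as widely within a dose as between doses. Mki67 (ENSMUSG00000031004, chromosome 7 from 135689784 to 135716361) had 0.426 to 2.48 CPM at 50 mg/kg (median 1.43), against 1.12, 2.32, 1.10, 1.74 and 0.296 CPM in controls, a log2 fold change of 0.04 (SE 0.48, 95% interval -0.94 to 1.02). Top2a (ENSMUSG00000020914, chromosome 11 from 98992943 to 99024189) had 0.145 to 1.91 CPM at 50 mg/kg (median 0.876), against 1.54, 2.32, 0.274, 1.61 and 1.03 CPM in controls, a log2 fold change of -0.73 (SE 0.54, interval -1.83 to 0.37), which was -0.45 when control replicate 2 was left out, -1.11 without 50 mg/kg replicate 4 and -0.24 within the run from 619. For both genes the control mice alone spanned more than 7-fold, on 2 to 16 reads each. Cdk1, the mitotic kinase, averaged 1.14 ± 0.264 CPM at 50 mg/kg (SD, n = 8) and 1.46 ± 0.611 CPM in controls (n = 5), a log2 fold change of -0.35 (SE 0.37), or -0.09 without 0 mg/kg replicate 3.

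Among the genes set by name Pcna had the narrowest interval. It had 13.9 to 23.2 CPM at 50 mg/kg (median 19.2), against 20.02, 19.7, 17.8, 17.4 and 17.3 CPM in controls, and its log2 fold change of 0.03 had a 95% interval of -0.24 to 0.30. Ccne2 (cyclin E2, which drives S phase entry) had a log2 fold change of -0.07 (interval -0.55 to 0.42), Mcm6 0.18 (interval -0.37 to 0.73) and Mcm2 -0.31 (interval -1.004 to 0.38). Mcm2 had -0.10 when control replicate 4 was left out, -0.48 when control replicate 5 was, and 0.14 within the run from 619. Ccnd1 had 8.55 to 40.9 CPM at 50 mg/kg (median 18.3), against 21.4, 14.9, 16.7, 38.5 and 14.2 CPM in controls. Its highest and lowest mice of all 26 were both at 50 mg/kg, and its log2 fold change was 0.07 (SE 0.35, interval -0.66 to 0.80).

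By role, 8 of 11 replication genes had positive log2 fold changes at 50 against 0 mg/kg (median 0.03), beside 51.1% of all tested genes. Only 3 of the 10 G2 and mitotic cyclins and kinases were tested. These were Aurka, Ccna2 and Cdk1, all negative (-0.35 to -0.02). Directions were not compared between roles by a test. Of the 10 tested genes of chromosomes, spindle and cytokinesis, 5 were positive and 5 negative. None of these groups held a gene that passed the test.

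At 5 against 0 mg/kg 0 of 29 genes passed (0% of all genes), and 0 had an unadjusted p under 0.05, beside 6.18% of all genes. The median log2 fold change was 0.03, beside 0.01 for all genes, and it was 0.28 within the run from 619 (35 genes). The smallest p belonged to the helicase subunit Mcm4, with a log2 fold change of 0.39 (SE 0.21, adjusted p = 0.780), or 0.26 without 5 mg/kg replicate 8. Cdca8 followed with 0.45 (SE 0.25) and Mcm3 with 0.38 (SE 0.24). Intervals lay within 2-fold for 21 of the 29, beside 82.3% of all tested genes.

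At 0.5 against 0 mg/kg 0 of 29 passed (0% of all genes), and 1 had an unadjusted p under 0.05, beside 6.99% of all genes. Log2 fold changes were positive for 11 genes and negative for 18, with a median of -0.07 beside 0.005 for all genes; the median was 0.15 within the run from 619 (35 genes) and -0.17 without 0 mg/kg replicate 5. The gene with an unadjusted p under 0.05 was Nusap1 (ENSMUSG00000027306, chromosome 2 from 119618298 to 119651244), a protein that binds spindle microtubules. It had 2.16, 2.43, 1.78, 3.59 and 1.99 CPM at 0.5 mg/kg, against 1.82, 1.01, 1.37, 0.671 and 0.887 CPM in controls. At 0.5 mg/kg 4 of 5 mice lay above the highest control. The log2 fold change was 1.03 (SE 0.39, 95% interval 0.24 to 1.83, unadjusted p = 0.0128, adjusted p = 0.596 in edgeR's quasi-likelihood test), with 1.66 within the run from 619 and 0.76 within the run from 601. At the upper doses Nusap1 averaged 1.60 ± 0.793 CPM with 5 mg/kg and 1.54 ± 0.532 CPM with 50 mg/kg (SD, n = 8 each). Mcm5 had a log2 fold change of -0.70 (SE 0.38, adjusted p = 0.751), which was 0.73 within the run from 619 and -1.14 within the run from 601, and Cenpa, the centromeric histone, had -0.41 (SE 0.25). The summed granulocyte markers reached 38.3 CPM in replicate 1 at 0.5 mg/kg, 19.5 CPM in replicate 2 of that dose and 22.2 CPM in control replicate 2, while none of the other 23 mice exceeded 9.04 CPM. Without these 2 mice at 0.5 mg/kg the log2 fold changes of Nusap1, Mcm5 and Cenpa were 1.05, -0.72 and -0.48, and without 0 mg/kg replicate 2 they were 0.99, -0.51 and -0.26. At 50 against 0 mg/kg Cdca8 and Rrm2 had 0.75 and 0.69 without 0 mg/kg replicate 2.

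**Figure D3:**
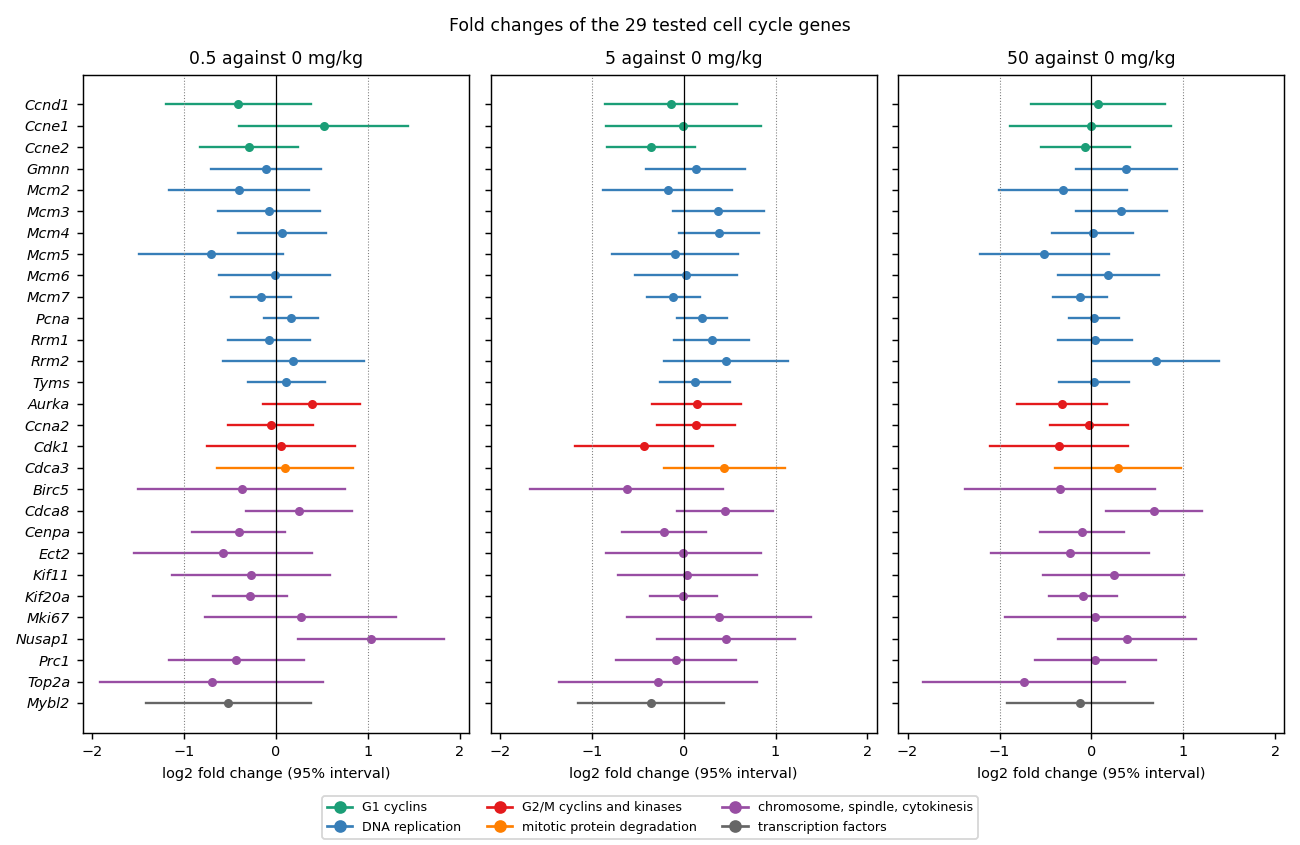
Log2 fold changes of the 29 tested genes at 0.5, 5 and 50 mg/kg, each against 0 mg/kg, with 95% intervals; dotted lines mark a 2-fold change and colours the roles. Most intervals cross 0, and those of Cdca8 and Rrm2 at 50 mg/kg and Nusap1 at 0.5 mg/kg, which do not, had adjusted p of 0.877, 0.965 and 0.596.

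No gene of the 29 had fully separate groups in any of the 4 pairs of doses, beside 0.166% of all tested genes for 50 and 0 mg/kg. The share of all genes was 0.222% for 5 and 0 mg/kg, 1.4% for 0.5 and 0 mg/kg, and 0.00694% for 50 and 5 mg/kg. At 50 against 5 mg/kg 0 of 29 passed (0% of all genes), and 2 had an unadjusted p under 0.05, beside 4.85% of all genes. The median log2 fold change was -0.05 (12 positive, 17 negative), or 0.01 without 5 mg/kg replicate 8. The 2 genes were Aurka, a spindle pole kinase, with a log2 fold change of -0.46 (SE 0.21, unadjusted p = 0.0332, adjusted p = 0.962), and Mcm4 with -0.38 (SE 0.18). Aurka had -0.48 within the run from 619 and -0.42 within the run from 601, and Mcm4 had -0.50 and -0.24 in the same order. Without 5 mg/kg replicate 8 Mcm4 had -0.23. Rrm1 followed with -0.27 (SE 0.17), which was -0.57 within the run from 619, 0.04 within the run from 601 and -0.15 without 50 mg/kg replicate 6.

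With dose entered as its rank over the 4 doses, 0 of 29 genes passed (0.0139% of all genes, 2 genes, both lower with dose), and 2 had an unadjusted p under 0.05, beside 4.26% of all genes. Cdca8 had a log2 change of 0.22 per dose step (SE 0.08, unadjusted p = 0.00705, adjusted p = 1.0). The mean level of Cdca8 was 1.41 ± 0.298 CPM in the 0 mg/kg group, 1.62 ± 0.212 CPM in the 0.5 mg/kg group, 1.85 ± 0.548 CPM in the 5 mg/kg group and 2.16 ± 0.579 CPM in the 50 mg/kg group (SD, n = 5, 5, 8 and 8). The slope was 0.16 per step within the run from 619 and 0.25 within the run from 601. Rrm2 had 0.24 per step (SE 0.10) and Mcm3 0.14 (SE 0.08). For all 29 genes the 95% interval of the slope lay within 2-fold per step, as it did for 99.8% of all tested genes.

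Between the runs of mouse numbers, at equal dose, 0 of 29 genes passed, beside 0.0902% of all genes (13 genes). One had an unadjusted p under 0.05, beside 7.98% of all genes. Mcm7 had a log2 difference of 0.23 in the run from 619 over that from 601 (SE 0.10, unadjusted p = 0.0319, adjusted p = 0.568), Gmnn -0.35 (SE 0.19) and Mcm3 0.31 (SE 0.17). The test of whether the 50 against 5 mg/kg difference itself differed between runs called 0 of the 24 genes it could test (0% of 13418 genes), with 2 at an unadjusted p under 0.05 beside 4.89% of all genes. Cdca3, a trigger of mitotic entry through protein degradation, had the smallest p there, with a log2 difference of 1.20 (SE 0.44, unadjusted p = 0.0141, adjusted p = 0.982). Rrm2 came next with 1.03 (SE 0.41), or 0.59 without 5 mg/kg replicates 6 and 8, and Rrm1 with -0.66 (SE 0.33). In the run from 619 Rrm2 averaged 5.50 CPM with 50 mg/kg and 3.08 CPM with 5 mg/kg (4 mice each). In the run from 601 it averaged 6.70 CPM with 50 mg/kg and 7.74 CPM with 5 mg/kg (4 mice each).

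Summed over all 41 genes the level was 149 ± 14.3 CPM without benoxacor, 138 ± 9.95 CPM with 0.5 mg/kg, 154 ± 16.0 CPM with 5 mg/kg and 152 ± 10.5 CPM with 50 mg/kg (SD). Without 5 mg/kg replicate 8 the sum at 5 mg/kg was 149 ± 10.3 CPM (n = 7). Without TMM scaling the 4 means were 156, 128, 159 and 150.02 CPM, so the gap between 0.5 and 0 mg/kg widened. The mice of the 4 doses overlapped, with TMM-scaled sums of 136 to 170, 131 to 155, 132 to 186 and 137 to 174 CPM. The mitotic genes alone summed to 40.9 ± 5.82, 37.7 ± 3.98, 41.3 ± 6.99 and 39.0 ± 4.16 CPM at the rising doses. The median biological coefficient of variation of the 29 tested genes was 27.8%, against 24.9% for tested genes of 1 to 25 mean CPM and 21.97% for all tested genes. Of the 29 genes 6 were above 40%: Birc5 (54.0%), Top2a (52.4%), Mki67 (46.2%), Ect2 (42.9%), Ccne1 (41.2%) and Ccnd1 (40.4%). These coefficients include 5 mg/kg replicate 8. Without that library the SD at 5 mg/kg was 0.189 CPM for Top2a (0.918 with it) and 0.819 CPM for Mki67 (1.26 with it).

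The highest total of the 41 genes, 186 CPM, was in 5 mg/kg replicate 8, the library with markers of steroid-producing and lymphoid cells. It was the highest of 26 libraries for 13 of the 41 genes and for 8 of the 29 tested ones (27.6%), against 11.5% of all tested genes. Mki67 had 4.36 CPM there and at most 3.10 CPM elsewhere. Top2a had 3.42 CPM there and at most 2.32 elsewhere, Mcm6 8.30 and at most 6.68, and Mcm2 7.36 and at most 5.23 CPM. The other tested genes highest there were the helicase subunits Mcm4 and Mcm5, the reductase subunit Rrm1 and Ccna2 (cyclin A2). Among the sparsely counted genes Ccnb1, Aurkb, Bub1b, Cenpe and Tpx2 were highest there as well.

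Other genes of the same program did not follow. In 5 mg/kg replicate 8 Rrm2 ranked 25th of 26, Ccne2 24th, and Gmnn and Cdk1 both 20th. Exons of Ccne2 overlap Ints8 on the opposite strand, as described below. Ints8 had 22.3 CPM there and averaged 29.6 CPM over all mice, so the level of Ccne2 is uncertain to that extent. Without this library the 5 mg/kg mean of Mki67 was 1.499 ± 0.819 CPM (SD, n = 7), against 1.86 ± 1.26 CPM with it, and the mitotic sum 39.4 ± 5.04 CPM against 41.3 ± 6.99 CPM. The part of other cell types in these values was not tested.

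**Figure D4:**
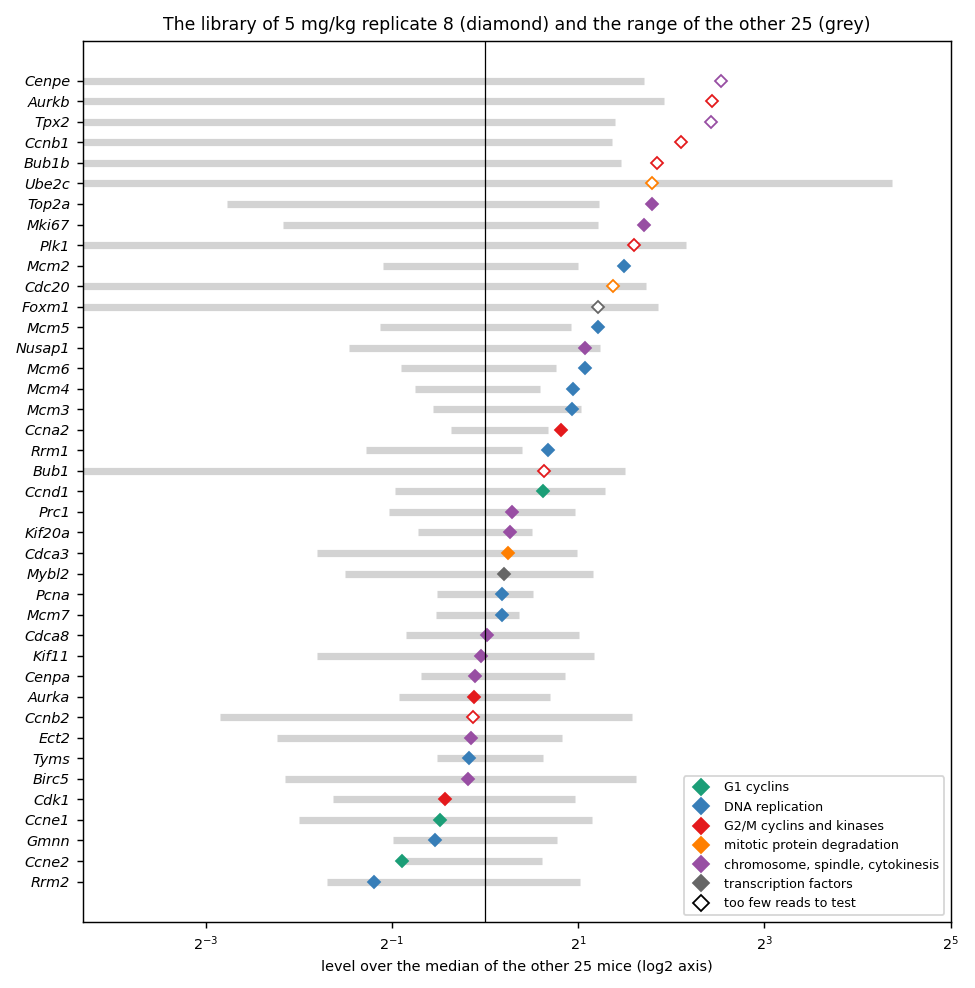
Level in the library of 5 mg/kg replicate 8 (diamonds, coloured by role, open for genes with too few reads to test) over the median of the other 25 mice (log2 axis), with the range of the other 25 in grey. Grey bars that reach the left edge go to 0, and Melk is not drawn because its median is 0. The diamonds of 13 genes, among them Top2a, Mki67, Mcm2 and Mcm6, lie beyond the grey bars, and those of Rrm2 and Ccne2 lie toward the lower ends.

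Across mice, most pairs of cell cycle genes had a low measured correlation. Correlations were taken on log2(CPM + 0.5) with dose and run means removed, over 26 mice, for the 406 pairs of the 29 tested genes, with 100000 permutations of the mice and p-values adjusted over the 406 pairs. The permutations shuffled the residuals of the 26 mice without allowing for the dose and run means removed, so these p-values tend to be too small. Pairs that passed narrowly are therefore uncertain, and the same holds for the overlapping genes below. The median r was 0.05, and 2.22% of pairs exceeded 0.5, against a median of -0.004 and 7.76% for pairs among all tested genes (a regular sample of 4154403 pairs). Without 5 mg/kg replicate 8 these were 0.02 and 1.97% for the cell cycle genes, against -0.002 and 8.34%. Of 91 pairs of mitotic genes 0 exceeded 0.5. Sparse counts lower such values, so a low r does not show that genes are unrelated. The pairs of all tested genes were not matched to the cell cycle genes for level.

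A trio of genes had the highest r of the 406 pairs. They lie on chromosomes 8 (Mcm5), 1 (Mcm6) and 11 (Top2a). Their 3 pairs were the only ones that passed an adjusted permutation p of 0.05 by Pearson's r. The share of pairs of all tested genes that would pass was not computed. An r above 0.5 was less common among the cell cycle genes (2.22% of pairs) than among all tested genes (7.76%). Mcm5 and Mcm6 had r = 0.76 and rho = 0.66 (adjusted permutation p = 0.00406 and 0.0325), with an unadjusted p for r of 1e-05, the smallest that the permutations can give. Mcm5 and Top2a had r = 0.66 and rho = 0.66 (adjusted permutation p = 0.046 and 0.0325), and Mcm6 and Top2a r = 0.65 and rho = 0.64 (0.046 and 0.0325). The 2 pairs with Top2a passed only narrowly by r, so their passing is uncertain. Without the 2 mice farthest from the median on the first gene of each pair the r was 0.65, 0.63 and 0.58, and without 5 mg/kg replicate 8 it was 0.73, 0.60 and 0.53. Pcna and Rrm1 had r = 0.62 and rho = 0.44 (adjusted permutation p = 0.0644 and 0.406).

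Among negative pairs Ccne2 and Rrm1 had r = -0.62 and rho = -0.76 (adjusted permutation p = 0.0644 and 0.0162), with r = -0.72 without the 2 farthest mice. Top2a and Ect2, an activator of cytokinesis, had r = -0.61 and rho = -0.68 (0.0644 and 0.0325). Gmnn and Mki67 had r = -0.64 and rho = -0.65 (0.0558 and 0.0325). By rank these 3 negative pairs passed the threshold, and by Pearson's r they did not. The level of Ccne2 is uncertain because its exons overlap Ints8, as described below.

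**Figure D5:**
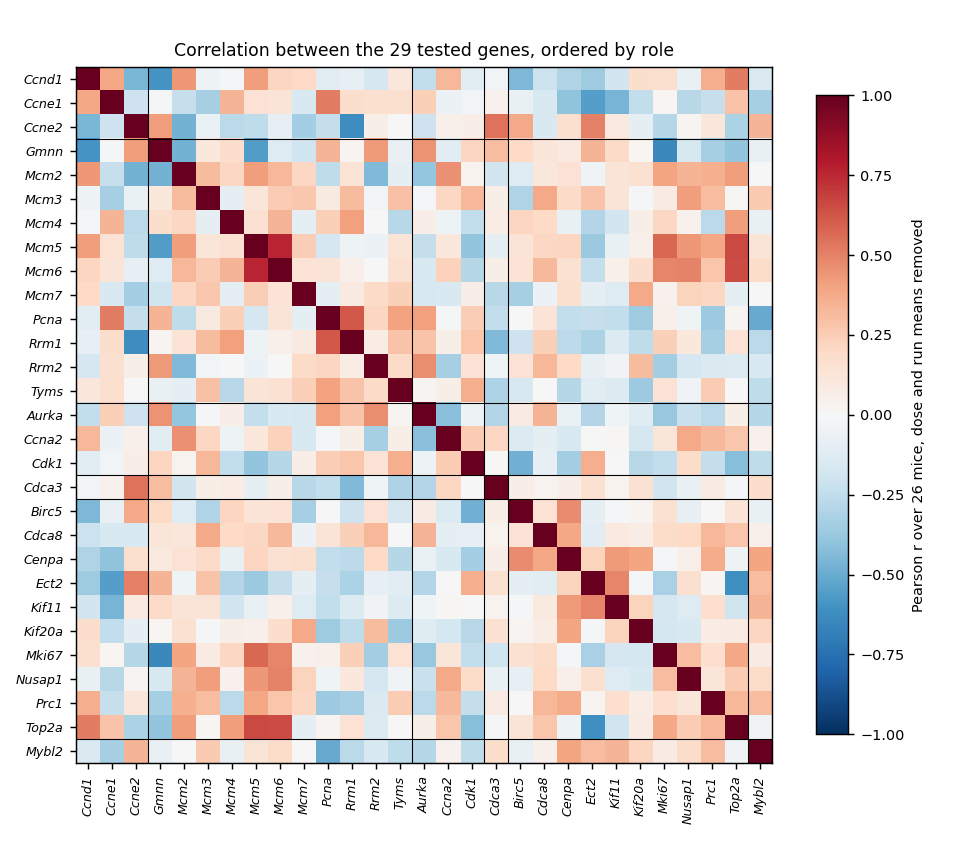
Pearson's r between the 29 tested genes over 26 mice, with dose and run means removed; genes are ordered by role and black lines separate the roles. The darkest red squares off the diagonal join Mcm5, Mcm6 and Top2a (r = 0.65 to 0.76), and the blocks of a role are not uniformly red.

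Several levels moved with those of neighbouring genes whose exons overlap on the opposite strand. Without the strand setting, reads on the shared bases of such pairs cannot be told apart. Exons of Ccnd1 share 1100 bases (23.4% of their length) with LTO1, and the levels of Ccnd1 and LTO1 correlated with r = 0.80 and rho = 0.79 (adjusted permutation p = 0.00011 each, over 11 overlapping pairs; r = 0.81 without the 2 farthest mice). Ccne2 overlaps Ints8, a subunit of the Integrator complex, over 17.4% of its exons, with r = 0.68 and rho = 0.67 (adjusted permutation p = 0.000825 and 0.00132), and r = 0.47 without the 2 farthest mice. Ccna2 overlaps Exosc9, a subunit of the RNA exosome, over 12.5%, with r = 0.54 and rho = 0.46 (0.0117 and 0.0382). Kif20a, a kinesin of cytokinesis, overlaps Cdc23, a subunit of the anaphase-promoting complex, over 29.3%, with r = 0.36 and rho = 0.40 (0.135 and 0.0777). Of the 11 pairs 5 passed by r. The others were Prc1 with Rccd1 (r = 0.45, rho = 0.54, adjusted permutation p = 0.0482 and 0.0176) and Ube2c with Tnnc2. The pair of Ube2c and Tnnc2 rests on the only library with Tnnc2 above 0, described above. All these pairs were examined after the values had been seen. Overlapping pairs outside the list were not examined, so the count of 5 has no share of all overlapping genes beside it. Among pairs of all tested genes, 7.76% had r above 0.5. The levels of these genes are uncertain to that extent.

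The genes outside all lists whose pattern was most like the summed mitotic genes over 26 mice were Sspo (SCO-spondin, r = 0.85), Gulp1 (an adaptor of cell engulfment, 0.82), Col5a2 (a chain of type V collagen, 0.80), Ppp1r18 (an actin-binding partner of protein phosphatase 1, 0.77) and Tecpr1 (an autophagy protein, 0.77). These were picked for their r out of all tested genes, so no p is given. Without 5 mg/kg replicate 8 the values were 0.81, 0.77, 0.75, 0.71 and 0.70. The mitotic sum, 39.8 CPM on average, leaned on Cenpa (7.73 CPM), Kif20a (5.20 CPM) and Ccna2 (4.79 CPM). Exons of Kif20a and Ccna2 overlap other genes, as described above. The sum therefore need not reflect a pattern shared by the mitotic genes.

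Genes around the same pathway were also without calls. Of 24 tested among 28 other replication genes, 24 of 54 other mitotic genes, 19 of 20 G1/S regulators, 15 of 17 cell cycle inhibitors and 17 of 20 hepatocyte growth signals, 0 passed in any of the dose comparisons or between runs. The share of all genes that passed was 0.00694% at 50 against 0 mg/kg, 0.0139% in the trend with dose rank, 0.0902% between runs and 0% elsewhere. At 50 against 0 mg/kg the unadjusted p was under 0.05 for 1, 1, 0, 3 and 1 genes of these lists in turn, beside 5.11% of all genes. The counts were 1, 3, 0, 2 and 0 at 5 against 0 mg/kg (6.18% of all genes) and 2, 2, 0, 1 and 2 at 0.5 against 0 mg/kg (6.99%). They were 0, 1, 0, 1 and 1 at 50 against 5 mg/kg (4.85%) and 2, 0, 0, 3 and 0 in the trend (4.26%). Between runs they were 0, 2, 0, 4 and 3 (7.98%), and 13 of the 15 tested inhibitors were higher in the run from 619, beside 54% of all genes. For the difference between runs in 50 against 5 mg/kg they were 1, 0, 1, 3 and 4 (4.89%). The run from 619 holds 1 control, so values within it rest on that mouse.

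Among replication genes Pold1, the catalytic subunit of DNA polymerase delta, had a log2 fold change of -0.39 at 50 against 0 mg/kg (SE 0.18) and -0.67 at 0.5 against 0 mg/kg (SE 0.20, unadjusted p = 0.00225, adjusted p = 0.492 in edgeR's quasi-likelihood test), and 0.08 in both within the run from 619. Gins1, part of the replicative helicase, had 0.55 at 50 against 0 mg/kg (SE 0.27) and 0.49 at 5 against 0 mg/kg (SE 0.27). Lig1, which joins Okazaki fragments, had 0.74 at 5 against 0 mg/kg (SE 0.28), and Rfc3, of the clamp loader, 0.52 at 0.5 against 0 mg/kg (SE 0.23), with 0.27 within the run from 619. Between runs Prim1, a primase subunit, had a log2 difference of 0.31 (SE 0.16) and Gins3 -0.51 (SE 0.29).

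Of the other mitotic genes Ccnf (cyclin F) had a log2 fold change of -0.50 at 50 against 0 mg/kg and -0.54 at 5 against 0 mg/kg (SE 0.24 each), and 0.005 and -0.01 within the run from 619. Cks2, which binds cyclin-dependent kinases, had 0.24 at 50 against 0 mg/kg (SE 0.15), with 0.09 within the run from 619, and Lmnb1 (lamin B1 of the nuclear envelope) 0.44 at 5 against 0 mg/kg (SE 0.21), with 0.15 in that run. At 0.5 against 0 mg/kg Pttg1, which encodes securin, had 0.31 (SE 0.13) and Hjurp, the chaperone of Cenpa, -0.42 (SE 0.18), against 0.05 and -0.08 in the run from 619. Hjurp averaged 218 CPM in controls and 159 CPM with 0.5 mg/kg, while Cenpa averaged 8.88 and 6.61 CPM. Overlap of Hjurp exons with other genes was not examined, so how far its reads reflect mitotic expression was not tested. The log2 difference between runs was -0.46 for Spc25, a kinetochore protein (SE 0.19), and 0.38 for Ccnf (SE 0.17).

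For the G1/S regulators every unadjusted p against 0 mg/kg was above 0.05. E2f1, an activator of S phase genes, had a log2 fold change of -0.47 at 50 against 0 mg/kg (SE 0.25) and -0.34 at 0.5 against 0 mg/kg (SE 0.27), the second being -0.12 without 0.5 mg/kg replicates 1 and 2. Its partner Tfdp1 had 0.17 at 50 against 0 mg/kg (SE 0.13), or 0.26 without 0 mg/kg replicate 1. At 5 against 0 mg/kg Rbl2, a relative of the retinoblastoma protein, had 0.20 (SE 0.14), and Skp2, of a ubiquitin ligase, -0.31 (SE 0.26), and without 0 mg/kg replicate 5 these were 0.13 and -0.14. Rb1, the retinoblastoma protein, had 0.22 at 0.5 against 0 mg/kg (SE 0.17), with -0.12 within the run from 619, 0.09 when replicate 2 at 0.5 mg/kg was left out and 0.11 when control replicate 4 was. Between runs Tfdp1 had -0.14 (SE 0.09) and Cdk6 -0.13 (SE 0.10), the last -0.06 without 5 mg/kg replicate 6.

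Of the inhibitors Cdkn1a, which encodes p21, had 0.438 to 16.2 CPM at 50 mg/kg (median 1.83), against 0.686 to 13.0 CPM in controls (median 3.50), a log2 fold change of -1.51 (SE 0.58, unadjusted p = 0.0154, adjusted p = 0.877). It was -0.69 within the run from 619, -2.13 within the run from 601 and -0.63 without 0 mg/kg replicate 4. At 0.5 against 0 mg/kg it had -0.91 (SE 0.62), or 0.05 without that control. Pkmyt1, a kinase that restrains Cdk1, had -0.82 at 50 against 0 mg/kg (SE 0.34, unadjusted p = 0.0218, adjusted p = 0.905), with -0.11 within the run from 619 and -1.04 within the run from 601. Cdkn1c, the inhibitor p57, had 1.14 at 5 against 0 mg/kg (SE 0.47), or 0.68 without 5 mg/kg replicates 6 and 8. Cdkn2d, an inhibitor of Cdk4 and Cdk6, had 0.65 at 5 against 0 mg/kg (SE 0.30) and 0.67 at 0.5 against 0 mg/kg (SE 0.33), the second being 0.22 within the run from 601.

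Among growth signals Met, the hepatocyte growth factor receptor, had a log2 fold change of 0.42 at 50 against 0 mg/kg (SE 0.16) and 0.53 at 0.5 against 0 mg/kg (SE 0.18), and 0.05 and 0.04 within the run from 619. Erbb3, a receptor of the EGF receptor family, had -0.28 at 50 against 0 mg/kg (SE 0.20) and -0.38 at 5 against 0 mg/kg (SE 0.21), against 0.02 and 0.32 in that run, and -0.15 and -0.25 without 0 mg/kg replicate 2. Igf1r, the receptor of insulin-like growth factor 1, had 0.92 at 5 against 0 mg/kg (SE 0.54), or 0.23 without 5 mg/kg replicate 8. The hormone gene Fgf21 had -1.42 at 0.5 against 0 mg/kg (SE 0.65), or -0.75 without 0 mg/kg replicate 3. Between runs Met had a log2 difference of -0.26 (SE 0.11) and Tgfbr1, a receptor of the growth inhibitor TGF-beta, -0.30 (SE 0.13).

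Between runs Cdkn1a came close to the threshold. It had 1.59 to 16.2 CPM in the run from 619 (median 7.78, 11 mice), against 0.438 to 13.0 CPM in the run from 601 (median 1.59, 15 mice). The log2 difference was 2.02 (SE 0.41, 95% interval 1.17 to 2.88, adjusted p = 0.0506 in edgeR's quasi-likelihood test), and it passed in DESeq2 (2.11) and with median-ratio size factors (2.03). The runs overlapped. Wee1, the kinase that restrains Cdk1, had 2.41 to 17.8 CPM in the run from 619 (median 3.84), against 3.89 to 31.1 CPM in the run from 601 (median 15.6), a log2 difference of -1.35 (SE 0.33, adjusted p = 0.104), which passed in DESeq2 (-1.40).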

How the data were processed

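The deposited values are whole-number counts of reads per gene, not normalized, and the submitters' processing notes name bcl2fastq, featureCounts and mm10; the aligner, annotation and strand setting are not given in the sources used here. The 26 files of single mice equalled the combined table in every value. No 2 libraries of a dose agreed within sampling noise (chi-square per degree of freedom 12 to 124).

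The 41 members and the gene lists were chosen with earlier results of these data known, and the overlap correlations after seeing the values. In edgeR 4.0.16 (R 4.3.3) filterByExpr kept 14415 genes with 99.7% of the reads, and TMM scaled the libraries. The quasi-likelihood test with robust spread, Benjamini-Hochberg adjustment over all genes and a threshold of 0.05 was fitted on all 26 mice with terms for dose and run, and on the 5 and 50 mg/kg mice for the interaction; it was tested on simulated data. Standard errors come from the fold change and F statistic. Exon lengths are from GENCODE M21 on mm10, promoters from RefSeq. DESeq2 1.42.0, limma-voom (limma 3.58.1), other filters, scalings and subsets of mice were alternatives. The text names markers of proliferation set by name, the 3 genes of smallest p in each comparison, the 3 highest and 3 lowest per length, genes with 1 outlying mouse, and the 2 of smallest p in each pathway list against 0 mg/kg and between runs.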

Additional observations from a re-analysis of the deposited data

Results flagged for a closer look

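Of 196 groups of 5 or 8 mice examined for the 41 genes and their sums, 17 had 1 mouse far from the others by Dixon's test at the 95% level. Chance gives this in about 1 of 20 groups when values are normally spread and groups independent. These groups hold sparse counts and sums of the same genes, so that rate is only a rough guide. In 5 mg/kg replicate 8 the high values were 8.30 CPM for Mcm6 (the other 7 mice reached 4.46), 7.36 CPM for Mcm2 (3.30), 3.42 CPM for Top2a (1.07), and 1.56 CPM each for Cenpe (0.459) and Tpx2 (0.574). This library also held the steroid-producing and B cell markers, and their part was not tested.

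In 5 mg/kg replicate 6 Ube2c had 3.09 CPM, beside at most 0.519 in the other mice of the dose, and Pcna 25.8 CPM, beside at most 22.6. Birc5 (survivin) reached 4.29 CPM in 5 mg/kg replicate 7 and Mybl2 1.98 CPM in 5 mg/kg replicate 1. At 50 mg/kg, replicate 3 was high for Cdca8 with 3.50 CPM, and replicate 8 was high for Bub1 and Ccnb1 with 0.371 CPM each, values that rest on 3 reads. In 50 mg/kg replicate 6 Rrm1 was low with 3.51 CPM, as was the replication sum with 63.0 CPM, where the other 7 mice had 79.5 to 86.4 CPM. Among the controls, replicate 2 was high for Ccnb2 with 3.04 CPM, and replicate 4 was low for Gmnn with 5.23 CPM and high for Rrm1 with 10.3 CPM.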

How the results depend on the processing

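Over 11 alternatives and the 26 fits that each leave out 1 mouse, 0 of the cell cycle genes passed in any comparison, and 3046 of 3151 alternative values kept their direction and their side of the threshold or moved little. The number of genes called over the whole table moved: DESeq2 called 3 at 50 against 0 mg/kg, 4 at 5 against 0, 7 at 0.5 against 0 and 108 between runs; limma-voom called 1 in the trend and 1 between runs; a filter of at least 1 CPM in 5 mice gave 1 and 8; no run term gave 0 at 50 against 0 mg/kg and 1 in the trend; the run from 601 alone gave 4 at 50 against 0 mg/kg and 33 at 0.5 against 0; the run from 619 alone gave 0 at 50 against 0 mg/kg and 0 in the trend; and leaving out 0.5 mg/kg replicates 1 and 2 gave 1 in the trend. In the run from 619 alone the median log2 fold change of the members was 0.28 at 5 against 0 mg/kg (0.03 over both runs) and 0.15 at 0.5 against 0 (-0.07 over both runs).

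Log2 fold changes that turned direction at 50 against 0 mg/kg were Ccnd1 (-0.056 in limma-voom, -0.24 in the run from 601), Mki67 (-0.15 in the run from 601, -0.027 without 0.5 mg/kg replicates 1 and 2) and, in the run from 619, Mcm5 (0.64), Mcm2 (0.14), Pold1 (0.079), Ccnf (0.0049) and Erbb3 (0.022). In that run Erbb3 had 0.32 at 5 against 0 mg/kg, and Mcm5 0.73, Pold1 0.083 and Rb1 -0.12 at 0.5 against 0. Rrm1 had 0.036 at 50 against 5 mg/kg in the run from 601. Without TMM the summed level at 0.5 mg/kg was 128 CPM and that of the controls 156 CPM, against 138 and 149 CPM with it.

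Leaving out each mouse gave 0 to 1 genes called at 50 against 0 mg/kg (0 without 0 mg/kg replicate 5), 0 to 3 at 5 against 0 (3 without 0 mg/kg replicate 4), 1 to 2 in the trend, 2 to 60 between runs (2 without 5 mg/kg replicate 4, 60 without 0 mg/kg replicate 4) and 0 to 2 for the difference between runs. At 50 against 0 mg/kg the log2 fold changes then ran from -0.20 to 0.38 for Ccnd1, -0.36 to 0.33 for Mki67, -0.23 to 0.035 for Ccne2, -0.034 to 0.076 for Pcna, -0.014 to 0.38 for Mcm6, -0.47 to -0.089 for Cdk1, -0.48 to -0.095 for Mcm2, -1.11 to -0.45 for Top2a and -0.83 to -0.32 for Mcm5. They ran from -0.61 to -0.26 for Cenpa at 0.5 against 0 mg/kg, from -0.32 to -0.15 for Rrm1 at 50 against 5 mg/kg, and at 0.5 against 0 mg/kg from -1.28 to 0.055 for Cdkn1a. The cause of these moves was not tested. No paired analysis was possible because the labels give no replicate numbers shared between doses. Depth limits the 12 untested genes, which had 18 to 200 reads over 26 mice.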
